A study of Homo sapiens with 4 samples.

Results

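Microtubules are hollow filaments built from dimers of alpha and beta tubulin, and gamma tubulin sits in the ring complexes that start new filaments. Several genes encode each kind, and the genes differ in how widely they are used across tissues. Cells also adjust the stability of alpha and beta tubulin mRNAs while these are being translated, in step with the amount of free tubulin protein, a process known as tubulin autoregulation. LC3 (microtubule-associated protein 1 light chain 3) takes its name from its purification with microtubules, and is best known as a ubiquitin-like protein of autophagosome membranes.

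The mRNAs of 10 tubulin genes were followed, out of 60676 genes in the deposited tables: the alpha tubulin genes TUBA1A, TUBA1B, TUBA1C and TUBA4A, the beta tubulin genes TUBB, TUBB2A, TUBB3, TUBB4B and TUBB6, and the gamma tubulin gene TUBG1. They were selected by symbol, each symbol matched 1 gene, and all 10 passed the filter of a mean of at least 1 CPM, with 381 reads or more in every library. The 4 libraries came from U2OS, an established human osteosarcoma cell line, with no treatment or genetic change named in the labels. In a native nuclear RNA immunoprecipitation, an antibody recovers a protein together with its RNA, without crosslinking; here the antibody was one to LC3B in 1 immunoprecipitate (IP) and non-specific IgG in the other, the negative control. Each IP had an input library of its own, for which the labels name no antibody, and polyadenylated RNA was sequenced. With 1 library in each group there is no replicate against which to check a difference, so no p-value was computed and the intervals given cover counting error alone.

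Total counts lay between 10000914 and 10886762 per library. Mitochondrially encoded genes took 22.8% and 20.8% of the IgG and LC3B inputs but 1.76% and 0.774% of the IgG and LC3B IPs, and were left out of the totals, which then lay between 8404123 and 10375786. CPM is the usual depth-scaled count, taken here over these reduced totals. The IgG IP stood apart: it had no read for 3043 of the 15431 genes that averaged 1 CPM or more, whereas the other libraries lacked reads for 54 to 62 of them. All the tubulin genes belong to the 5881 genes that averaged 30 CPM or more over the inputs, here called abundant; 102 abundant genes had no read in the IgG IP, and 0 in each other library. Results that use the IgG IP are therefore given beside those of the LC3B IP over its own input, which do not use it. Of 8 osteoblast and mesenchymal markers 5 were measured, with VIM, SPARC, COL1A1, RUNX2 and ALPL present, SP7 at 0 reads in every library and COL1A2 and BGLAP at 3 reads or fewer. The 4 blood and 3 endothelial markers were all below the filter. Of the 4 epithelial markers 3 were measured, and the 4 summed to at most 26.8 CPM. EPCAM, at 15.0 to 25.75 CPM, was as abundant as RUNX2 (8.35 to 32.0 CPM) and ALPL (18.85 to 33.0 CPM). All 4 neural markers were measured, with a sum of at most 17.1 CPM.

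The 9 alpha and beta mRNAs followed here took a larger share of the LC3B IP than of any other library, unlike TUBG1. This did not hold for the measured beta genes outside the 10. TUBB2B was highest in the IgG IP (53.95 CPM, against 43.2 CPM in the LC3B IP). TUBB4A was highest in the IgG input (12.97 CPM, against 12.72 CPM in the LC3B IP). TUBB1 was highest in the LC3B input (2.34 CPM, against 1.64 CPM in the LC3B IP). Together the 10 genes took 0.860% and 0.826% of the reduced totals of the IgG and LC3B inputs, 0.643% of that of the IgG IP and 1.13% of that of the LC3B IP. In CPM and in TPM alike, the LC3B IP was the highest of the 4 libraries for all 9 alpha and beta genes, while TUBG1 was highest in the IgG IP. The 8 osteoblast and mesenchymal markers summed to 2821 and 3228 CPM in the inputs, 1984 CPM in the IgG IP and 3911 CPM in the LC3B IP, lowest and highest in the same libraries as the alpha and beta genes together. SPARC supplied most of this sum (2207 and 2612 CPM in the inputs, 1445 in the IgG IP, 2876 in the LC3B IP). VIM and RUNX2 were lowest and highest in the same IPs. ALPL was highest in the IgG IP at 33.0 CPM, and COL1A1 was higher there (239 CPM) than in the inputs (131 and 160 CPM). The part of these markers in the result was not tested. These are shares of a library: more tubulin RNA and less of other RNA cannot be told apart, nor can fewer cells and less RNA per cell.

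Levels were compared between genes in TPM, which divides by transcript length, rescaled to a total without mitochondrial genes. TUBA1B, the main alpha tubulin gene of many dividing cells, led in each library, at 2847 and 2776 TPM in the IgG and LC3B inputs. In the inputs the order then ran TUBB, TUBB4B, TUBB6, TUBA1C, TUBA1A, TUBG1, TUBB2A, TUBA4A and TUBB3, the last at 39.25 and 39.20 TPM. No neighbours in this order had overlapping values in the 2 inputs, though some lay close, such as TUBA4A at 43.6 and 43.5 TPM to TUBB3 and TUBB at 798 and 772 TPM to TUBB4B at 707 and 706 TPM. The LC3B IP kept the input order except that TUBB3, at 67.4 TPM, stood above TUBA4A, at 61.7 TPM. In the IgG IP TUBB dropped from the 2nd to the 4th place at 351.5 TPM, below TUBB4B at 692 TPM and TUBB6 at 550.5 TPM. TUBG1 moved there from the 7th to the 5th place at 255 TPM.

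**Figure D1:**
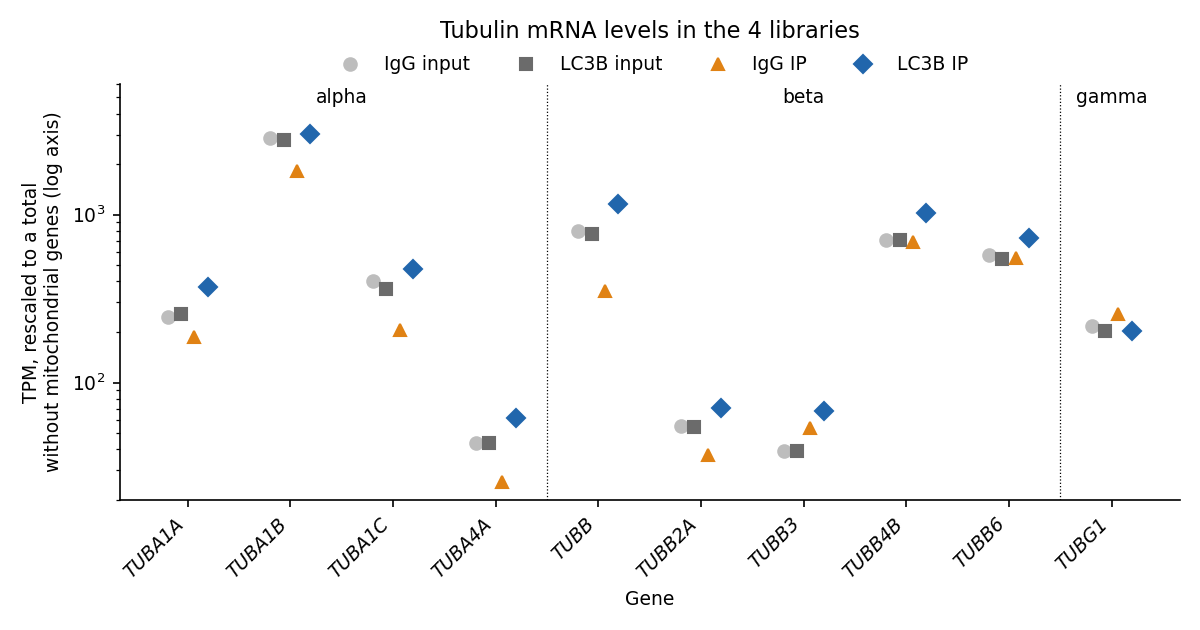
TPM of each tubulin gene, rescaled to a total without mitochondrial genes, on a log axis, with 1 point per library (circle, IgG input; square, LC3B input; triangle, IgG IP; diamond, LC3B IP). The diamond is the highest point for all 9 alpha and beta genes, and for TUBG1 the triangle is highest at 255 TPM.

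The comparison of each IP with its own input asks how much of a transcript was recovered relative to its share of the input. Each fold has a 95% exact conditional binomial interval; calls of higher required the whole interval to lie at 2 or above, and calls of lower at 0.5 or below. Over the LC3B input 0 of the 10 tubulin genes were called, where 1.4% of all 15431 genes were called higher and 4.48% lower (1.17% and 8.16% of abundant genes). All 9 alpha and beta genes nonetheless had intervals above 1, with folds from 1.17 to 1.84 and a median of 1.53, where the median gene stood at 1.01 and the median abundant gene at 0.924. TUBG1 also had an interval above 1, at 1.08, so 10 of 10 genes were on that side, as were 30.7% of all genes and 36.2% of abundant genes; 0 had an interval below 1, as 31.1% and 48.4% did. The interval of TUBG1 included 1 with TMM scaling (1.05, 0.991 to 1.106) and with the IgG input as denominator (1.003, 0.951 to 1.06), which leaves the 9 alpha and beta genes. With bounds of 1.5 in place of 2, TUBB, TUBB3 and TUBB4B were higher, 3 of 10 genes against 7.82% of all genes and 9.06% of abundant genes. Of the 10 genes, 8 lay above the upper quartile of the abundant genes (1.27), and TUBA1B and TUBG1 lay between the quartiles.

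Over the IgG input the same genes spread in both directions. Folds ran from 0.478 to 1.498, with intervals above 1 for 4 genes (TUBB3, TUBB4B, TUBB6 and TUBG1) and below 1 for 6, against 31.2% and 53.4% of all genes and 35.6% and 51.8% of abundant genes. TUBB alone was called, as lower, where 33.6% of all genes and 18.7% of abundant genes were; 0 were called higher, against 9.69% and 5.03%. With bounds of 1.5, TUBA1C joined TUBB as lower, against 39.9% of all genes and 28.2% of abundant genes. Between the inputs no tubulin gene was called. Folds of the LC3B over the IgG input lay between 0.909 (TUBA1C) and 1.06 (TUBA4A), inside the range from 0.831 to 1.26 that held 95% of the abundant genes, where 0.136% of all genes were called higher and 0.156% lower (0% and 0.017% of abundant genes). Intervals lay below 1 for 5 of the 10 (TUBA1B, TUBA1C, TUBB, TUBB6 and TUBG1) and above 1 for 0, against 8.94% and 12.7% of all genes and 13.6% and 14.4% of abundant genes.

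The comparison of the IPs with each other asks which RNAs were recovered above the IgG background. TUBA1C and TUBB were called higher and 0 genes lower, 2 of 10 genes against 33.8% of all genes and 16.1% of abundant genes for higher, and 9.45% and 6.82% for lower. The share of called tubulin genes is thus near the background. Intervals lay above 1 for 9 genes, as for 53.6% of all genes and 46.2% of abundant genes, and below 1 for TUBG1, as for 32% and 41.4%. With bounds of 1.5, 6 genes were higher (all 4 alpha genes, TUBB and TUBB2A), against 40.5% of all genes and 25.4% of abundant genes. The median fold was 1.72 over the 10 genes, 1.35 over all genes and 1.04 over abundant genes. This comparison shares its libraries with those over the inputs: over the 2 inputs summed, without the IgG IP, 0 of the 10 genes were called. The share of all genes called over the summed inputs is not given here, so that count has no background. Over the LC3B input alone 1.4% of all genes were called higher and 4.48% lower.

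**Figure D2:**
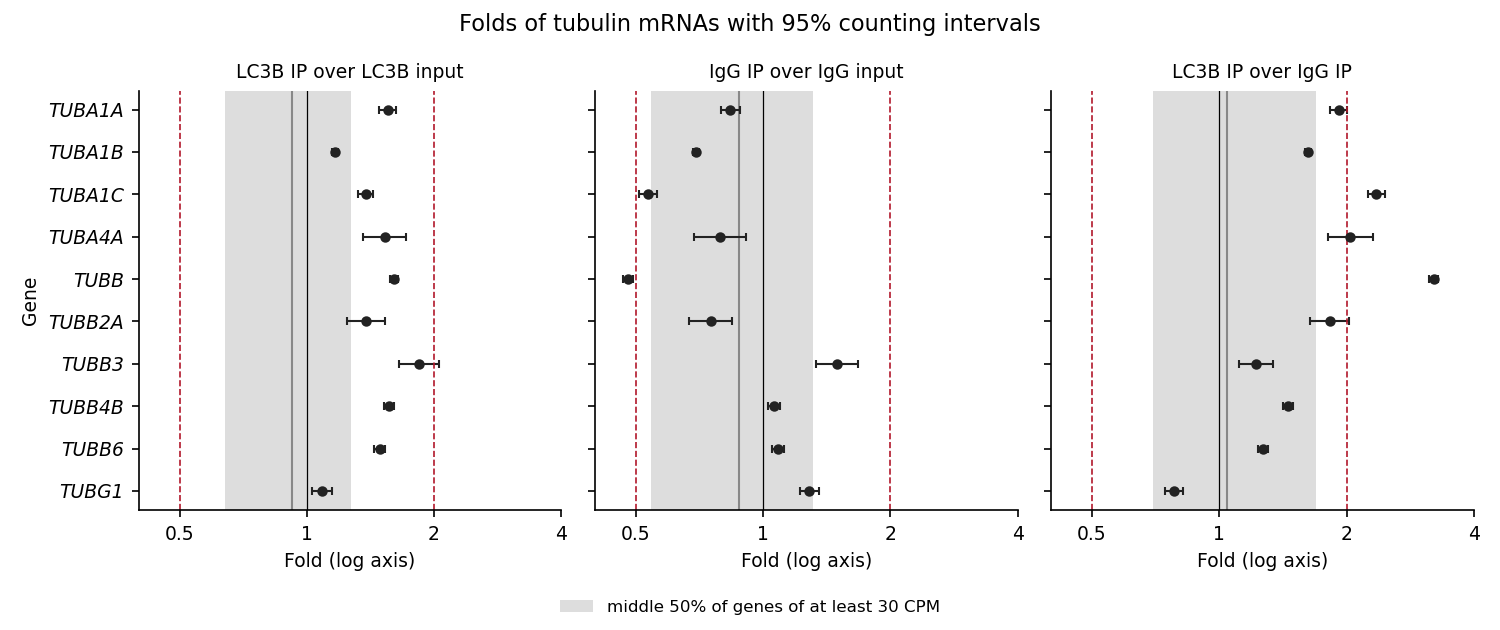
Folds with 95% counting intervals of the 10 tubulin genes in the LC3B IP over its input, the IgG IP over its input and the LC3B over the IgG IP, on log axes; grey bands hold the middle 50% of abundant genes, with their median as a grey line, and dashed lines mark 0.5 and 2. In the left panel 8 genes lie above the band, and in the middle panel TUBB at 0.478 and TUBA1C at 0.534 lie below it.

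Among the alpha genes, TUBA1B (ENSG00000123416, chromosome 12, 49127782 to 49131397, minus strand; hg38 coordinates of the deposited table here and below) had 3830 CPM in the input of the IgG IP and 3692 in that of the LC3B IP, 2651 in the IgG IP itself and 4306 in the LC3B IP. Of the alpha and beta genes it stood nearest to 1 over the LC3B input, at 1.17 (95% interval 1.15 to 1.18), and stood at 0.692 (0.681 to 0.704) over the IgG input and at 1.62 (1.60 to 1.65) between the IPs. TUBA1C (ENSG00000167553, chromosome 12, 49188736 to 49274603, plus strand), a second widely used alpha gene of this cluster, had 479, 435, 256 and 601 CPM in the same order of libraries. Its IPs thus lay on either side of the inputs. The fold was 1.38 (1.325 to 1.44) over the LC3B input and 0.534 (0.508 to 0.561) over the IgG input, and the gene was called higher between the IPs at 2.35 (2.24 to 2.46).

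TUBA1A (ENSG00000167552, chromosome 12, 49184795 to 49189080, minus strand), the alpha gene prominent in developing neurons, had 341, 351.5, 285 and 546 CPM. The LC3B IP was the high library and the IgG IP the low one, with folds of 1.55 (1.485 to 1.62) over the LC3B input, 0.836 (0.793 to 0.881) over the IgG input and 1.92 (1.83 to 2.01) between the IPs. TUBA4A (ENSG00000127824, chromosome 2, 219249710 to 219278170, minus strand), an alpha gene whose mRNA lacks the codon for the C-terminal tyrosine, had the lowest TPM of the alpha genes, and stood at 48.9, 51.9, 38.8 and 79.2 CPM. Its folds were 1.53 (1.36 to 1.72), 0.793 (0.688 to 0.914; 1.009 with mitochondrial genes in the totals) and 2.04 (1.81 to 2.31) for LC3B over input, IgG over input and LC3B over IgG. In TPM the IgG fold of TUBA4A was 0.583, lower than in counts, and the fold between the IPs 2.43. TUBA1A, TUBA1B and TUBA1C encode almost the same protein, and how reads that match more than 1 of them were assigned is not given in the sources used here. Giving each such read to 1 gene would leave their summed counts unchanged, but dropping it or counting it repeatedly would not. Their summed counts stood at 1.22 (1.20 to 1.23) over the LC3B input, 0.686 (0.676 to 0.697) over the IgG input and 1.71 (1.685 to 1.73) between the IPs.

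Among the beta genes, TUBB (ENSG00000196230, chromosome 6, 30720352 to 30725426, plus strand), the widely used class I gene, had 1756 CPM in the input of the IgG IP and 1682 in that of the LC3B IP, 840 in the IgG IP itself and 2705 in the LC3B IP. The LC3B value was the highest and the IgG value the lowest by wide margins. The fold was 1.61 (1.58 to 1.64) over the LC3B input, and TUBB was called lower over the IgG input at 0.478 (0.466 to 0.4915) and higher between the IPs at 3.22 (3.14 to 3.30). The call over the IgG input is borderline, since it is lost with the LC3B input as denominator (0.499, 0.486 to 0.513) and with each other scaling tried (0.4999 to 0.609), while the fold in TPM was 0.440. The call between the IPs held under each scaling, with folds from 2.92 to 3.30 including that in TPM.

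TUBB4B (ENSG00000188229, chromosome 9, 137241287 to 137243707, plus strand), a class IV gene used in dividing and ciliated cells, had 918, 906, 974 and 1416 CPM. The LC3B IP was the high library and the other 3 lay close together, with a fold of 1.56 (1.52 to 1.61) over its input, against 1.06 (1.03 to 1.09) for IgG over its input and 1.45 (1.42 to 1.49) between the IPs. TUBB6 (ENSG00000176014, chromosome 18, 12307669 to 12344320, plus strand), the class V gene, was also highest in the LC3B IP, with 808, 750, 877 and 1114 CPM, with folds of 1.49 (1.44 to 1.53), 1.09 (1.05 to 1.12) and 1.27 (1.235 to 1.31). In TPM the IgG folds of these genes were 0.978 for TUBB4B and 0.960 for TUBB6, so their direction over the IgG input turns with the unit.

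TUBB3 (ENSG00000258947, chromosome 16, 89921392 to 89938761, plus strand), the class III gene known as a marker of neurons, had 56.4, 56.1, 84.5 and 103 CPM. Both IPs exceeded both inputs. Its fold over the LC3B input was the largest of the 10 genes, 1.84 (1.65 to 2.05), and over the IgG input it alone lay above the upper quartile of abundant genes, at 1.498 (1.34 to 1.68). Between the IPs TUBB3 stood at 1.22 (1.114 to 1.34). The 4 neural markers summed to 14.2, 17.1, 1.93 and 15.7 CPM, lowest in the IgG IP, where TUBB3 was not. TUBB2A (ENSG00000137267, chromosome 6, 3153666 to 3157544, minus strand), a class II gene, had 72.0, 71.6, 54.15 and 98.8 CPM, and followed the alpha genes with folds of 1.38 (1.25 to 1.53), 0.752 (0.668 to 0.847) and 1.82 (1.64 to 2.03). Its near-identical neighbour TUBB2B had 188, 210, 530 and 448 reads in the IgG input, LC3B input, IgG IP and LC3B IP, and was called higher in the IgG IP over its input at 2.41 (2.04 to 2.86). TUBB2B stood at 1.76 (1.49 to 2.08) over the LC3B input and below 1 between the IPs, at 0.800 (0.704 to 0.909). The 2 genes summed stood at 1.15 (1.04 to 1.26) over the IgG input, on the other side of 1 from TUBB2A alone. How reads were divided between these neighbours was not tested.

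TUBG1 (ENSG00000131462, chromosome 17, 42609683 to 42615238, plus strand) encodes the gamma tubulin of centrosomes in most cells. It had 288 CPM in the input of the IgG IP and 266 in that of the LC3B IP, 370 in the IgG IP itself and 289 in the LC3B IP. The IgG IP was the high library, and the LC3B IP lay close to the inputs, at 1.08 (1.03 to 1.145) over its input and at 1.01 in TPM. TUBG1 was the only one of the 10 genes with an interval below 1 between the IPs, at 0.780 (0.743 to 0.819). It kept that side under each scaling tried, at 0.7075 to 0.800.

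When the folds over the own input were divided, LC3B by IgG, the result was a ratio above 1 for all 9 alpha and beta genes. The ratio was highest for TUBB at 3.36 (3.25 to 3.48) and TUBA1C at 2.585 (2.42 to 2.76), and lowest for TUBB3 at 1.23 (1.05 to 1.435). TUBG1 stood below 1 at 0.842 (0.782 to 0.908). TUBB and TUBA1C also had the lowest folds over the IgG input, while over the LC3B input TUBB3 led, TUBB followed and TUBA1C came after 6 other genes.

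The summed alpha counts stood at 1.22 (1.205 to 1.24) over the LC3B input and the summed beta counts at 1.57 (1.55 to 1.59). Over the IgG input they stood at 0.688 (0.6775 to 0.698) and 0.784 (0.771 to 0.797), and between the IPs at 1.71 (1.69 to 1.74) and 1.92 (1.89 to 1.95). The beta sum thus lay above the alpha sum in both IPs relative to the inputs. TUBA1B supplied most of the alpha reads. Without it the other 3 alpha genes stood at 1.46 (1.42 to 1.505) over the LC3B input, and without TUBB the other 4 beta genes at 1.53 (1.502 to 1.56). In the IgG IP the 4 beta genes other than TUBB stood at 1.07 (1.05 to 1.10). The ratio of summed beta to summed alpha TPM was 0.614 and 0.617 in the IgG and LC3B inputs, and 0.754 and 0.779 in the IgG and LC3B IPs.

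The makeup of the alpha set was similar in the 4 libraries, while that of the beta set differed in the IgG IP. TUBA1B held 80.5% and 80.8% of the alpha TPM in the IgG and LC3B inputs, 81.3% in the IgG IP and 76.9% in the LC3B IP. TUBA1C held 11.4%, 10.5%, 9.15% and 12.1%, and TUBA1A 6.91%, 7.41%, 8.40% and 9.42%, in the same order. TUBB held 36.7% and 36.4% of the beta TPM in the inputs and 38.0% in the LC3B IP, but 20.9% in the IgG IP. TUBB4B held 41.1% there, against 32.55%, 33.3% and 33.7% in the IgG input, LC3B input and LC3B IP, and TUBB6 held 32.7%, against 26.4%, 25.8% and 23.8%. TUBB3 had its largest share, 3.18%, in the IgG IP, against 1.81% to 2.21% elsewhere. The beta makeup of the LC3B IP was thus close to that of the inputs.

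**Figure D3:**
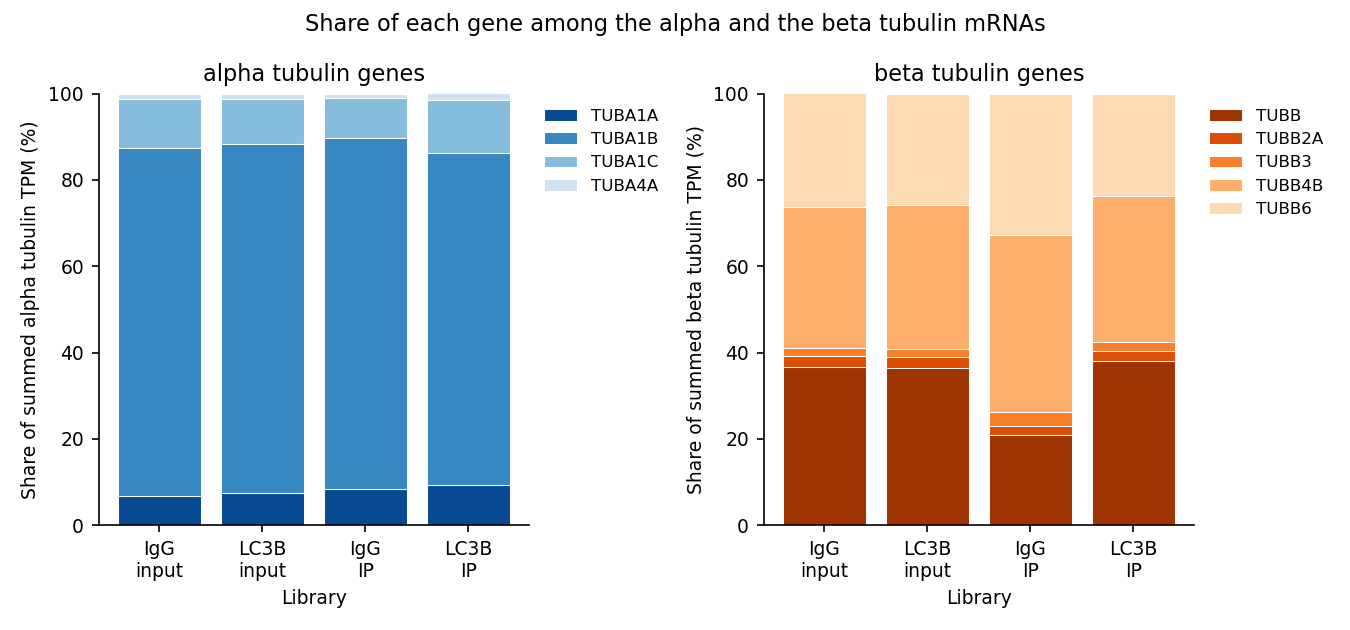
Share of each gene in the summed TPM of the 4 alpha genes (left) and of the 5 beta genes (right), in percent, with 1 bar per library. TUBB takes 20.9% of the beta bar in the IgG IP and 36.4% to 38.0% in the other libraries, while TUBA1B takes 76.9% to 81.3% of each alpha bar.

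Several tubulin genes overlap features annotated on the opposite strand that carry many reads and the same pattern. The long non-coding AC011603.3 overlaps TUBA1B over 3616 bases and TUBA1A over 3690 bases. It had 21586, 21236, 17734 and 30308 reads in the IgG input, LC3B input, IgG IP and LC3B IP, between 0.671 and 0.681 times the count of TUBA1B in each library. Relative to TUBA1A its count varied more, from 7.54 times in the IgG input to 5.35 times in the LC3B IP. AL662797.2 overlaps TUBB over 773 bases and had 2868, 2772, 1485 and 5704 reads, between 0.180 and 0.203 times the count of TUBB. AC125611.3, opposite TUBA1C, had 1348, 1345, 1080 and 2308 reads, between 0.335 and 0.430 times its count. Not every partner followed its gene: AFG3L2, opposite TUBB6 over 15377 bases, had 1556, 1691, 1311 and 1852 reads. Its folds were 0.902 over the LC3B input and 0.721 over the IgG input, against 1.49 and 1.09 for TUBB6. The kit named in the labels does not mark strand, and the strand setting of the counting is not given in the sources used here. Hence reads of the tubulin genes and of these partners cannot be told apart, and how many reads of each tubulin gene were counted for its partner was not tested.

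TUBA4A overlaps TUBA4B, on the opposite strand, over 18955 bases. TUBA4B had 124 reads in the IgG IP and 1, 0 and 1 in the IgG input, LC3B input and LC3B IP, and was singled out after its values were seen. The 39 tubulin pseudogenes in the table held little: 8 of them had a read, the largest count was 23 (TUBAP2), and their sum came to 0.0237% to 0.0692% of the reads of the 10 genes.

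**Figure D4:**
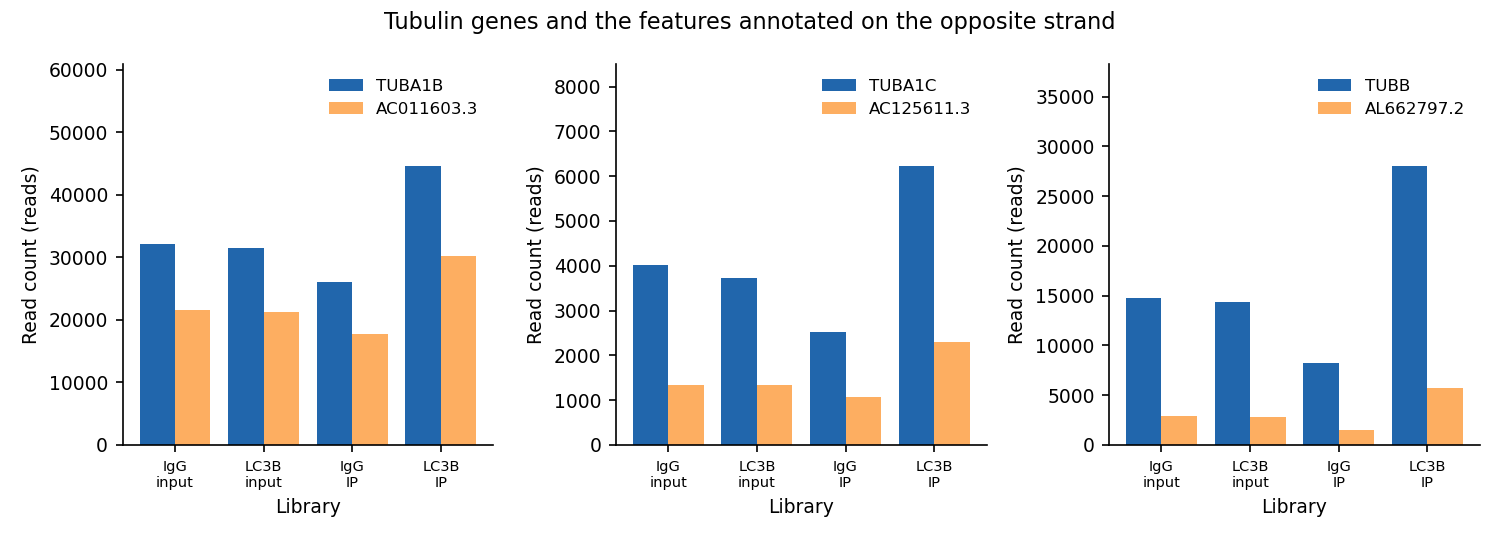
Read counts of TUBA1B, TUBA1C and TUBB (blue) and of the features annotated on the opposite strand, AC011603.3, AC125611.3 and AL662797.2 (orange), in the 4 libraries. The orange bars follow the blue ones, and for TUBA1B they stand at 0.671 to 0.681 times its count.

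By distance of centred log2(CPM + 0.5) over the 4 libraries, among 7159 genes of at least 10 CPM in each, the genes most like TUBA1B were AC011603.3 (distance 0.0171), PTP4A2 (0.0368) and SEC13 (0.0397). AC011603.3 overlaps TUBA1B, and reads of the pair cannot be told apart, so its nearness is not a separate observation. Those most like TUBB were YIPF3 (0.0936), PCBP4 (0.0972) and SNHG6 (0.102), and those most like TUBG1 were JSRP1 (0.0335), CYFIP1 (0.0397) and DFFA (0.0530). A pattern over 4 libraries is a short one: 167 genes lay within 0.2 of TUBA1B, 35 of TUBB and 231 of TUBG1.

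Over the LC3B input, other microtubule genes mostly lay lower than the alpha and beta tubulins. Of 82 such features measured, 0 were called higher and 3 lower, where 1.4% and 4.48% of all genes were. Intervals lay above 1 for 19 and below 1 for 35 of the 82, as for 30.7% and 31.1% of all genes and 36.2% and 48.4% of abundant genes. The median fold was 0.873, against 1.01 over all genes and 0.924 over abundant genes. In the IgG IP 9 of the 82 had no read, as 3043 of all 15431 genes and 102 of the 5881 abundant genes did. Of the 12 other tubulin genes 8 were measured, with a median of 1.106 over the LC3B input and 0 called. The one with the most reads was TUBA3C, an alpha gene known from testis, with 2170, 2228, 4876 and 5223 reads and folds of 1.93 (1.84 to 2.03) over the LC3B input, 1.92 (1.83 to 2.02) over the IgG input and 1.01 (0.975 to 1.055) between the IPs. Between the IPs 3 of the 8 were called higher and 0 lower. The shares were 33.8% and 9.45% of all genes, and 16.1% and 6.82% of abundant genes. TUBA3C has near-identical copies (TUBA3D, TUBA3E), and its count is uncertain. TUBD1, delta tubulin of centrioles, was called lower in the IgG IP, with 384, 406, 33 and 489 reads, and higher between the IPs at 14.0 (9.86 to 20.6), while over the LC3B input it stood at 0.992 (0.868 to 1.13). TUBB4A (109, 89, 21 and 132 reads) and TUBA3E (9, 15, 0 and 29 reads) were called in the same comparisons as TUBD1. Their folds over the LC3B input were 1.22 (0.926 to 1.62) and 1.59 (0.826 to 3.19).

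For genes that nucleate microtubules together with gamma tubulin the median over the LC3B input was 0.8175. Of the 12, 0 were called higher and 1 lower, against 1.4% and 4.48% of all genes. The gene called lower was AKAP9, a centrosomal and Golgi scaffold, at 0.430 (0.383 to 0.483). MZT2A and MZT2B, small ring complex subunits, had the most reads, and stood at 1.495 (1.38 to 1.62) and 1.46 (1.37 to 1.55) over the LC3B input and at 1.97 (1.82 to 2.13) and 1.84 (1.74 to 1.95) over the IgG input. Between the IPs 3 of 12 were called higher, no larger a share than the 33.8% of all genes, and 0 lower: NEDD1, which anchors the ring complex, at 7.51 (5.92 to 9.65), TUBGCP6 at 88.1 (15.4 to 3515) with 1 read in the IgG IP, and TUBGCP5, at least 46.7-fold higher with 0 reads there. Their folds over the LC3B input were 0.6835 (0.613 to 0.762) for NEDD1, 0.969 (0.710 to 1.325) for TUBGCP6 and 0.734 (0.584 to 0.922) for TUBGCP5.

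Tubulin folding genes, whose products bind and shape newly made tubulin chains, stood at a median of 0.836 over the LC3B input. Of 22 features 0 were called higher and 1 lower, against 1.4% and 4.48% of all genes. The gene called lower was VBP1, a subunit of the prefoldin chaperone, at 0.346 (0.321 to 0.373). Of the 8 subunits of the CCT chaperonin, which folds actin and tubulin, 3 had intervals above 1 and 5 below 1. CCT5, the subunit gene with the most reads, stood at 0.693 (0.672 to 0.714) and CCT8 at 0.641 (0.620 to 0.663). Between the IPs 3 of the 22 folding features were called higher and 2 lower. The shares were 33.8% and 9.45% of all genes, and 16.1% and 6.82% of abundant genes. PFDN6, a prefoldin subunit, was higher at 4.29 (3.603 to 5.13), TBCEL at least 13.9-fold higher, and TBCD, a tubulin folding cofactor, lower at 0.275 (0.232 to 0.326). With the LC3B input as denominator PFDN6 stood at 1.61 (1.415 to 1.83), TBCEL at 0.503 (0.338 to 0.742) and TBCD at 1.31 (1.03 to 1.67).

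Of the 3 autoregulation genes 0 were called over the LC3B input, where 1.4% of all genes were called higher and 4.48% lower. Intervals lay below 1 for 2 of the 3 and above 1 for 0, as for 31.1% and 30.7% of all genes. TTC5, which recognises the start of nascent tubulin chains, stood at 1.13 (0.9265 to 1.38) over that input and CNOT11, a subunit of the CCR4-NOT deadenylase, at 0.693 (0.633 to 0.758). SCAPER stood at 0.422 (0.320 to 0.553) over the same input. It had 0 reads in the IgG IP and was the only 1 of the 3 called between the IPs, at least 26.2-fold higher. Between the IPs 33.8% of all genes were called higher. Among 14 measured genes of tubulin modification, 0 were called higher and 1 lower over the LC3B input, against 1.4% and 4.48% of all genes. The gene called lower was AGTPBP1, a deglutamylase, at 0.2585 (0.202 to 0.328). TTL, which adds tyrosine to alpha tubulin, stood at 0.844 (0.761 to 0.936), AGBL5 at 0.897 (0.804 to 1.002) and SIRT2, a deacetylase, at 1.83 (1.52 to 2.21). Between the IPs 6 of the 14 were called higher and 0 lower, near the 33.8% and 9.45% of all genes, with SIRT2 at 351 (62.7 to 13912) on 1 IgG read, TTLL4 at 23.7 (10.6 to 65.5) on 6 IgG reads, and VASH2 at least 16.7-fold. TTLL4 stood at 1.12 (0.872 to 1.45) and VASH2 at 1.32 (0.840 to 2.11) over the LC3B input.

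Of 23 measured microtubule-associated genes 0 were called over the LC3B input, where 1.4% of all genes were called higher and 4.48% lower. Their median was 0.872. STMN1, which binds free tubulin dimers, stood at 0.673 (0.658 to 0.688) and MAPRE1, an end-binding protein, at 0.720 (0.673 to 0.769). Between the IPs 8 of the 23 were called higher and 4 lower. The shares were 33.8% and 9.45% of all genes, and 16.1% and 6.82% of abundant genes. KIF2A, a depolymerising kinesin, was higher at 36.0 (19.9 to 72.6) with 11 reads in the IgG IP, and MAP7 and MAPRE3, with 0 reads there, were at least 39.8-fold and at least 31.25-fold higher. Over the LC3B input KIF2A stood at 0.510 (0.450 to 0.577), MAP7 at 0.583 (0.460 to 0.736) and MAPRE3 at 1.13 (0.827 to 1.56).

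**Figure D5:**
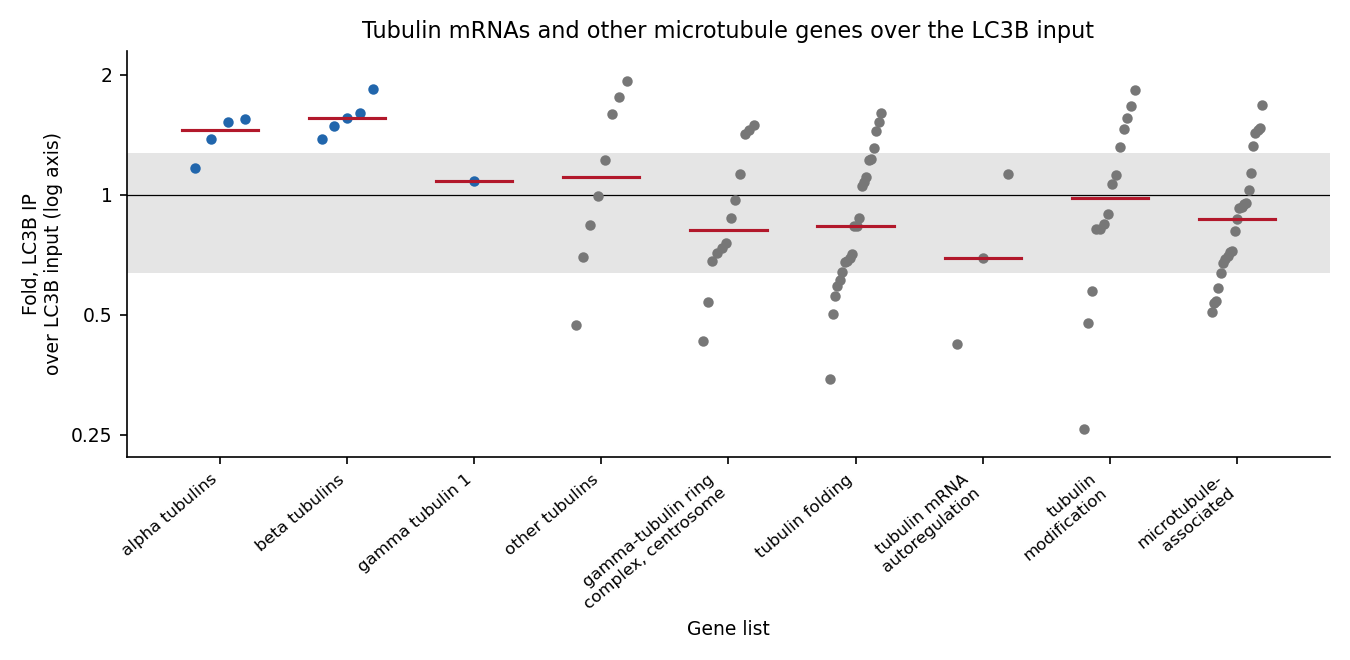
Folds of the LC3B IP over its input on a log axis, with 1 point per measured gene, the tubulin genes under study in blue and other microtubule genes in grey; red lines are list medians and the grey band holds the middle 50% of abundant genes. The alpha and beta genes lie between 1.17 and 1.84, and the medians of the folding and microtubule-associated lists lie at 0.836 and 0.872.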

How the data were processed

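The deposited counts are raw reads per Ensembl gene, per the file headers; commas that group digits were removed. The deposited TPM values were scaled within each library by the authors, per the file headers, and were rescaled here to a total without chromosome MT. The submitters' processing notes name cutadapt 2.8, STAR 2.7.1a and hg38; the counter, the annotation, and the treatment of strand and of reads with several matches stay unnamed in the sources used here. Folds of counts carry exact conditional binomial 95% intervals. The input-corrected ratio adds 0.5 to each count and has a log-normal interval. For genes with 0 reads in the IgG IP, the lower 95% limit is given in place of the fold between the IPs. Reads without molecular identifiers are not independent molecules, so intervals cover counting error only. Python 3.11.15 with scipy 1.17.1 was used.

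Named outside the tubulin genes were, per list, the 2 most abundant genes and the called genes furthest from 1 (up to 3 between the IPs, 2 in each other comparison), of which a selection is given; features sharing a symbol were not named. The background of genes averaging 30 CPM or more and the side-of-1 counts were added after seeing the data. Members and lists were chosen with earlier results of these data known. Alternatives were other totals and scalings (TMM and median-of-ratios in purpose-written code), filters, bounds, denominators and TPM.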

Additional observations from a re-analysis of the deposited data

How the results depend on the processing

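No paired analysis was possible because each group holds 1 library. Taking all genes into the totals shifted the median log2 fold of all genes by 0.32 over the LC3B input and by 0.35 over the IgG input, the same for every gene. With it 1 tubulin gene was called over the LC3B input (TUBB3, 2.303) and 0 over the IgG input, TUBA1A and TUBA4A crossed 1 over the IgG input at 1.06 and 1.009, and over the LC3B input 886 of all genes were higher and 261 lower, against 216 and 691; for IgG over its input the split was 2364 higher to 4582 lower, against 1495 to 5185. TMM and median-of-ratios scaling moved the median between the IPs by -0.14 and -0.12, and left 0 tubulin genes called over the IgG input, as did the LC3B input as denominator. Bounds of 1.5 gave 6 calls between the IPs, 3 over the LC3B input and 2 over the IgG input. Replacing the IgG IP by both inputs summed, an alternative chosen after seeing the data, gave 0, with no share of all genes beside it. Under the scalings and in TPM all 9 alpha and beta genes stayed above 1 over the LC3B input and between the IPs, from 1.085 (TUBA1B) and 1.108 (TUBB3) upward.

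In shares of counts, which favour long transcripts, TUBA1B held 81.5%, 81.5%, 82.1% and 77.8% of the alpha set and TUBB 48.6%, 48.5%, 29.7% and 49.75% of the beta set in the IgG input, LC3B input, IgG IP and LC3B IP. Ratios of summed beta to summed alpha counts were 0.768, 0.765, 0.876 and 0.983 in that order. Depth limits the rarer genes most: the interval of TUBA4A between the IPs, 1.81 to 2.31, spans 2, while that of TUBB is 3.14 to 3.30. No replicate measures the spread between libraries, and leaving out a replicate was not possible.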
